A study of Homo sapiens with 9 samples.

Results

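The mitochondrial ribosomal protein genes were read as the 78 symbols that begin with MRPL or MRPS, continue with a number and end with at most a letter A to C, out of 59648 genes counted in each library. Another 76 symbols that carry a P and a number after such a name mark pseudogenes and were left out. Of the 78 members, 51 encode proteins of the large subunit, 26 encode proteins of the small subunit, and MRPS36 encodes a protein now assigned to the 2-oxoglutarate dehydrogenase complex. MRPS30 and MRPS18A belong to the large subunit in spite of their names.

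The mitochondrial ribosome translates the mRNAs encoded by mitochondrial DNA, all of which specify core subunits of the respiratory chain and ATP synthase. Its rRNAs are transcribed inside the organelle, whereas all of its proteins are encoded in the nucleus, made in the cytosol and imported. Many of these proteins have a counterpart in the bacterial ribosome, and others are particular to mitochondria, where they replace or extend lost rRNA segments.

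The RNA sequencing was done in Kasumi-1, a human acute myeloid leukaemia line whose t(8;21) translocation produces AML1-ETO, a RUNX1-RUNX1T1 fusion protein abbreviated AE. The 3 groups of 3 libraries are the AE knockdown (shAE, numbers 1 to 3), the LYL1 knockdown (shLYL1, numbers 538, 540 and 542) and the control shRNA (shControl, numbers 1 to 3). LYL1 is a helix-loop-helix transcription factor found in a complex with AE. All groups, controls included, were transduced with lentivirus for 48 h, selected in 1 µg/mL puromycin for 48 h and harvested on day 4. All come from a single cell line, and the labels do not say whether libraries of a group are separate cultures, so p-values cover only the variation among these libraries, which may be technical. The labels also leave unsaid whether the numbers of the AE and LYL1 libraries mark different shRNAs.

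Libraries held between 20103275 and 28039518 counts. Levels are given as CPM, counts relative to the TMM-scaled library total. RUNX1T1, the ETO partner of the fusion, had 114, 137 and 87.7 CPM with AE knockdown, against 216, 223 and 212 CPM in control; these counts hold reads of the fusion and of the normal gene. LYL1 had 80.4, 98.4 and 43.9 CPM with LYL1 knockdown, against 172, 172 and 143 CPM in control, and its adjusted p of 0.527 in edgeR's quasi-likelihood test did not pass. AE knockdown library 3 stood apart at 102 on a first principal component with 56.5% of the variance, against 46.1 and 29.7 for the other AE libraries and values below 0 for all LYL1 knockdown and control libraries. Of the 6 myeloblast markers MPO and KIT were abundant in every library, while CD34 was low and uneven, at 1.14, 19.7 and 4.19 CPM with AE knockdown, 53.2, 22.1 and 9.98 CPM with LYL1 knockdown and 12.5, 12.6 and 10.5 CPM in control. Also, KRT18, COL1A2 and MS4A1 were at 0 in all of them. The myeloblast markers, whose sum is mostly MPO, summed to between 17800 and 34190 CPM with AE knockdown, between 12810 and 17680 CPM with LYL1 knockdown and between 19000 and 21980 CPM in control. With AE knockdown CD33 and PTPRC were called higher and RUNX1T1 lower (adjusted p below 0.05). The 5 lymphoid markers summed to between 4.08 and 17.89 CPM with AE knockdown, between 4.84 and 7.98 CPM with LYL1 knockdown and between 9.24 and 11.53 CPM in control, and CD3D was called lower with AE knockdown. The 5 epithelial and stromal markers summed to at most 1.39 CPM in any library. The part of these shifts in the results below was not tested, and in bulk RNA fewer cells of a type and less RNA per cell cannot be told apart.

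Most of the mitochondrial ribosomal protein genes were well measured. Counts passed the low-count filter for 75 of the 78 members, among 14741 genes tested. Among those 75 the level per kilobase of exon, averaged over the 9 libraries, had a median of 16.8 CPM per kb and spanned 0.42 to 94.8 CPM per kb. The highest of these averages was that of MRPS34, a small subunit protein particular to mitochondria, at 94.8 CPM per kb. It was followed by MRPL51 at 85.1, MRPL3 at 72.7, MRPL37 at 66.5 and MRPL15 at 48.7 CPM per kb, all large subunit proteins. Within the groups MRPS34 had 58.6 ± 13.4 CPM per kb with AE knockdown, 109.8 ± 7.3 with LYL1 knockdown and 116 ± 24.4 in control (SD, n = 3). With AE knockdown its mean was thus below those of MRPL51, at 94.3 ± 17.6 CPM per kb, and MRPL3, at 70.4 ± 17.8 CPM per kb, and the SDs of MRPS34 and MRPL3 overlap. The lowest tested members were MRPL46 at 0.42, MRPL38 at 0.73, MRPS28 at 0.85, MRPS18C at 1.05 and MRPL2 at 3.38 CPM per kb.

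The 3 members that did not pass the filter were almost without counts in every group. MRPL53, a large subunit protein, had 2 counts in all 9 libraries together, and MRPS18B, one of 3 MRPS18 paralogs, had 1 count. MRPS24 had 37 counts in all, with 1 to 8 per library. In the GENCODE 29 annotation, 45.2% of the exon bases of MRPL53 lie in exons of another gene, as do 23.2% of those of MRPS24, and none of those of MRPS18B. The counting rule for shared bases is not given in the sources used here, and its part in these low counts was not tested. The other MRPS18 paralogs passed the filter, though 47.0% of the exon bases of MRPS18A and 40.2% of those of MRPS18C are shared with a gene on the opposite strand. MRPS18A had 14.0, 14.8 and 16.8 CPM with AE knockdown, 12.1, 11.4 and 10.1 CPM with LYL1 knockdown and 12.7, 13.3 and 10.7 CPM in control. MRPS18C had 6.62, 4.90 and 9.33 CPM with AE knockdown, 4.68, 4.88 and 3.39 CPM with LYL1 knockdown and 4.05, 3.43 and 4.54 CPM in control. Neither was called in any comparison. For both, every AE library was above every control library.

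With AE knockdown, few mitochondrial ribosomal protein genes were called, and most of those called were higher. A gene was called when its p-value, adjusted by Benjamini-Hochberg over all genes tested, was below 0.05. Of the 75 members, 6 were called higher, against 11.4% of all genes tested, and 1 was called lower, against 10.4% of all genes. The called shares of the members were 8% and 1.33%, and the 7 calls in either direction stand beside 21.8% of all genes. At an unadjusted p below 0.05 there were 23 members, against 37.2% of all genes. Before any threshold the members lay slightly above 0. Their median log2 fold change was 0.18, beside 0.05 over all genes, and 54 of 75 were above 0. Values of all AE libraries lay above all control libraries for 31 members, against a background of 23.1% of all genes, and below them for 7 members, against 22.2%. A correction for transcript length and GC content lowered the members' median to 0.055.

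**Figure D1:**
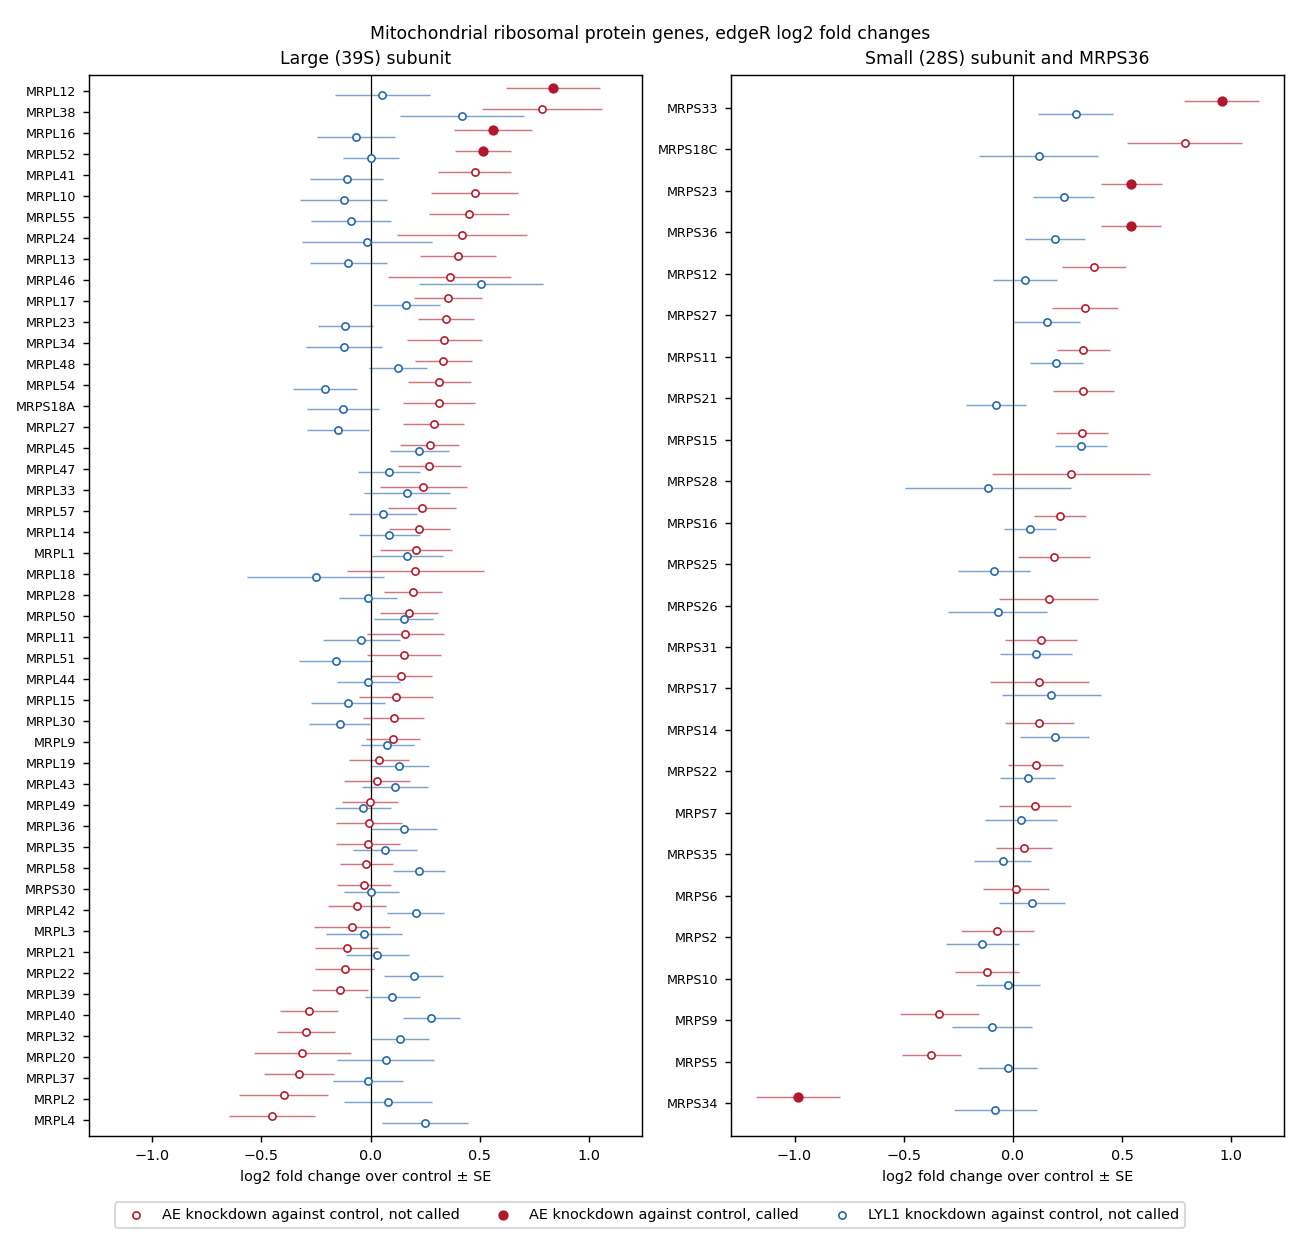
Log2 fold change over control (x axis, ± SE) of the 75 tested members, with the large subunit on the left and the small subunit with MRPS36 on the right. Filled points are called at an adjusted p below 0.05, and only AE knockdown has filled points: 6 to the right of 0 and MRPS34 to the left at -0.98.

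The member called lower was MRPS34, which encodes a small subunit protein needed for the stability of that subunit. MRPS34 had 79.5, 63.1 and 50.2 CPM with AE knockdown, 125, 111 and 125 CPM with LYL1 knockdown and 110, 113 and 158 CPM in control. All 3 AE libraries lay below every other library. Its log2 fold change with AE knockdown was -0.98 ± 0.19 (SE), with an adjusted p of 0.00786 in edgeR's quasi-likelihood test.

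MRPS33, a small subunit protein particular to mitochondria, changed by a similar amount in the opposite direction. MRPS33 had 36.7, 36.6 and 54.99 CPM with AE knockdown, 27.2, 27.8 and 25.5 CPM with LYL1 knockdown and 22.6, 21.7 and 21.6 CPM in control. The AE libraries were the 3 highest, with library 3 above the other AE libraries, and the LYL1 libraries also lay above all controls. Its log2 fold change with AE knockdown was 0.96 ± 0.17 (adjusted p = 0.00579, edgeR quasi-likelihood test). MRPS33 and MRPS34 were called under all 21 alternative settings, with log2 fold changes of 0.72 to 1.05 and -1.17 to -0.80.

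The other called members rose by less. In the small subunit, MRPS23, also particular to mitochondria, had 55.7, 54.0 and 49.6 CPM with AE knockdown, against 36.9, 35.9 and 36.6 CPM in control. These groups did not overlap, and its log2 fold change was 0.54 ± 0.14 (edgeR adjusted p = 0.0213). In the large subunit, MRPL12 forms part of the stalk that recruits translation factors. It had 25.2, 31.4 and 16.9 CPM with AE knockdown, against 14.9, 14.8 and 11.5 CPM in control. AE library 3 stood only just above the controls, and the log2 fold change was 0.84 ± 0.22 (edgeR adjusted p = 0.0213). In GENCODE 29, 68.2% of the exon bases of MRPL12 are shared with AC139530.2 on the same strand, so reads of the pair may not be separable; the other 6 called members share none.

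MRPL16, a large subunit protein with a bacterial counterpart, had 65.8, 91.3 and 87.3 CPM with AE knockdown, against 54.5, 55.02 and 55.9 CPM in control. Its groups were apart and its log2 fold change was 0.56 ± 0.18 (edgeR adjusted p = 0.0445). MRPL52, particular to mitochondria, had 35.4, 43.4 and 39.3 CPM with AE knockdown, against 27.1, 27.6 and 27.9 CPM in control. Controls of MRPL52 lay within 1 CPM of each other, and its log2 fold change was 0.52 ± 0.13 (edgeR adjusted p = 0.0191). MRPS36, the protein of the 2-oxoglutarate dehydrogenase complex, had 26.6, 30.7 and 29.8 CPM with AE knockdown, against 20.7, 18.5 and 20.7 CPM in control. All AE libraries were higher, with a log2 fold change of 0.54 ± 0.14 (edgeR adjusted p = 0.0203).

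The calls of MRPL12, MRPL16, MRPS23, MRPS36 and MRPL52 each ended when any 1 of the 3 control libraries was left out, leaving MRPS33 as the 1 member called higher. Without control 1, 2 or 3 their adjusted p ranged from 0.0643 (MRPL12 without control 1) to 0.133 (MRPL16 without control 2), while fold changes stayed between 0.48 and 0.90 on the log2 scale. The call of MRPL16 also ended without AE library 2, AE library 3 or LYL1 library 538, under 2 of the other scalings, in limma-voom and with the length and GC correction. Without a low-count filter only MRPS33 and MRPL12 were called higher, MRPL12 was not called in a fit of only the 6 libraries compared, and MRPS36 was not called with the length and GC correction.

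**Figure D2:**
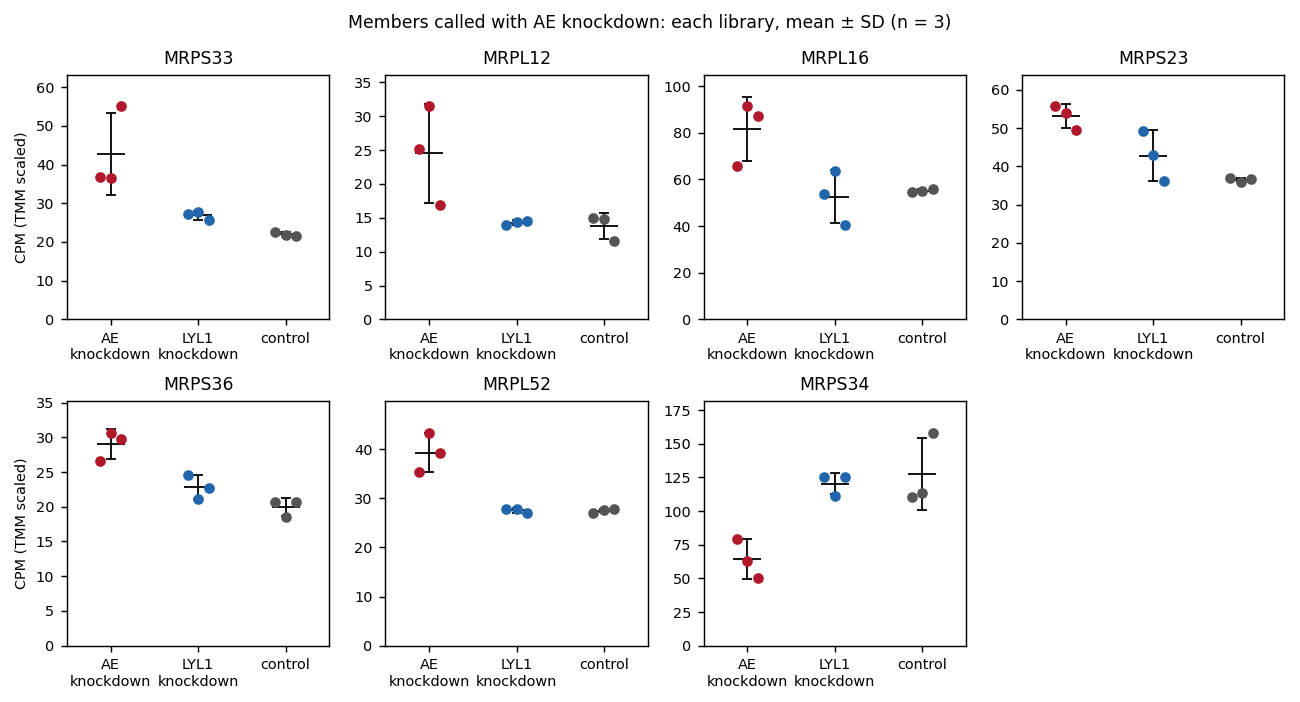
TMM-scaled CPM (y axis, from 0) of the 7 called members in each library, with AE knockdown, LYL1 knockdown and control from left to right and black bars for mean ± SD (n = 3). For MRPS34 the AE libraries lie between 50.2 and 79.5 CPM, below all others; for MRPL12 AE library 3, at 16.9 CPM, lies just above the controls.

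Among members that were not called, the lowest p-values on the lower side belonged to MRPS5, MRPL4, MRPL32 and MRPL40. MRPS5, which has a bacterial counterpart in the small subunit, had 104, 99.5 and 80.5 CPM with AE knockdown, against 119, 117 and 132 CPM in control. Its groups did not overlap, and its log2 fold change of -0.37 ± 0.13 had an adjusted p of 0.0675 in edgeR's quasi-likelihood test. MRPL4, a protein of the large subunit core, had a log2 fold change of -0.45 ± 0.20. MRPL32 and MRPL40, also in the large subunit, had -0.30 ± 0.13 and -0.28 ± 0.13.

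The subunits are read against the same shares of all genes, 11.4% called higher, 10.4% called lower and 37.2% at an unadjusted p below 0.05. In the large subunit edgeR called 3 of 50 tested members higher and 0 lower, with 13 members (26%) at an unadjusted p below 0.05, and the median log2 fold change was 0.19. DESeq2 and limma-voom also called 0 of them lower, and MRPL40 was called lower with the length and GC correction (edgeR adjusted p = 0.0306). In the small subunit 2 of 24 were called higher and 1 lower, with 9 members (37.5%) at an unadjusted p below 0.05 and a median of 0.15. Of 45 tested proteins with a bacterial counterpart 2 were called higher, and of 29 proteins particular to mitochondria 3 were called higher and 1 lower. The ratio of summed large to summed small subunit CPM lay between 1.89 and 2.08 with AE knockdown, between 1.90 and 2.02 with LYL1 knockdown and between 1.97 and 1.99 in control.

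Promoters of 4 called members are shown, MRPS34 and MRPS33 because their calls held under all alternatives run, and MRPS23 and MRPL52 because they hold a searched motif. Promoters come from RefSeq (GRCh38.p14), where 69 of the 78 members had an entry, and each window is the 250 bases before the start site. Searched on both strands were CCGGAAG, a core of ETS family sites such as those of GABP, the NRF1 core (GCGCA, any 1 base, then GCGC), and AAGATGGC, a YY1 core; both GABP and NRF1 are known regulators of mitochondrial genes. Capitals below mark the matches, which do not overlap each other. The windows lie on chromosome 16 for MRPS34 (chr16:1773135-1773384, minus strand), 7 for MRPS33 (chr7:141014953-141015202, minus), 17 for MRPS23 (chr17:57850045-57850294, minus) and 14 for MRPL52 (chr14:22829637-22829886, plus).
MRPS34: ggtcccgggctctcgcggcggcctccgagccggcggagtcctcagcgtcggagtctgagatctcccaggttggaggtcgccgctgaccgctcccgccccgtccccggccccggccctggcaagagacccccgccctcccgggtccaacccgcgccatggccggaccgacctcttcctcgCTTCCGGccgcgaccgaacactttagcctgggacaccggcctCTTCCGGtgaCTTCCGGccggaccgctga
MRPS33: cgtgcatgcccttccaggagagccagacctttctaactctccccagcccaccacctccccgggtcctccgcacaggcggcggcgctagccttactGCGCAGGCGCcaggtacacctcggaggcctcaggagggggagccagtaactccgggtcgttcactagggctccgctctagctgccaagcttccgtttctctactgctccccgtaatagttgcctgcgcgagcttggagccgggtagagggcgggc
MRPS23: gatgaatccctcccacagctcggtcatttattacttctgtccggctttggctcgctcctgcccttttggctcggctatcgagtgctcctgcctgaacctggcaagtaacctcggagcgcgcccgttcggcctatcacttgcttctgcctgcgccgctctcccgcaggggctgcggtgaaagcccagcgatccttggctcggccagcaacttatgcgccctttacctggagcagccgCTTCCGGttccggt
MRPL52: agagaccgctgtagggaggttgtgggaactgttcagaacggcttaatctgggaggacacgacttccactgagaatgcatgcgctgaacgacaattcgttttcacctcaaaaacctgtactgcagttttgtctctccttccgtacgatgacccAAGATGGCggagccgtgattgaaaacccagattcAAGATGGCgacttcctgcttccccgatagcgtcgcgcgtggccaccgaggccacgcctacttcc

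MRPS34, which fell, holds the ETS core 3 times, on the strand opposite to the one spelled above. It is the 1 of 66 tested members with a promoter (1.52%) that holds it 3 times or more, beside 0.336% of 9830 promoters of tested genes. MRPS23, which rose, holds the same core once, MRPS33 holds the NRF1 core once and MRPL52 holds the YY1 core 2 times. The windows of MRPL12 and MRPL16 hold none of the 3. Over 66 tested members with a promoter, 33.3% hold the ETS core, beside 16.5% of the promoters of tested genes and 8.82% of all 27305. The 6 called members with a promoter hold it at the same 33.3%. The NRF1 core is in 12.1% of members, beside 10.9% of tested and 5.53% of all promoters. The YY1 core is in 7.58% of members, beside 1.89% and 1.37%. A match is a description and not a site or a cause.

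With LYL1 knockdown, no mitochondrial ribosomal protein gene was called. edgeR's quasi-likelihood test, DESeq2 and limma-voom each called 0 members, and over all genes edgeR called 1 higher and 1 lower, 0.00678% in each direction and 0.0136% in either. At an unadjusted p below 0.05 there was 1 member, MRPS15, against 4.82% of all genes; DESeq2 and limma-voom each also gave 1. The members' median log2 fold change was 0.06, beside 0.01 over all genes, and 44 of 75 were above 0. All LYL1 libraries lay above all controls for 11 members, against a background of 8.41%, and below them for 0 members, against 8.17%.

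MRPS15, a small subunit protein with a bacterial counterpart, had 118, 115 and 114 CPM with LYL1 knockdown, against 94.0, 98.9 and 86.5 CPM in control. The groups did not overlap, its log2 fold change was 0.31 and the adjusted p 0.957 in edgeR's test. MRPL40 had 38.96, 35.7 and 37.1 CPM with LYL1 knockdown, against 31.0, 33.0 and 28.1 CPM in control, again without overlap, at 0.28 on the log2 scale. MRPL58, a peptidyl-tRNA hydrolase that frees stalled ribosomes, had a log2 fold change of 0.22, MRPL46 0.51 and MRPS33 0.29. On the lower side the members with the lowest p were MRPL54 at -0.21, MRPL27 at -0.15, MRPL30 at -0.14, MRPL51 at -0.16 and MRPL23 at -0.12.

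A single library set apart MRPL18, a large subunit protein. It had 22.7, 60.6 and 62.3 CPM in LYL1 knockdown libraries 538, 540 and 542, against 55.5, 56.4 and 61.1 CPM in control, and was named after its values were seen.

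Set against each other, the knockdowns gave calls for 12 of the 75 members, while 20.4% of all genes were called in either direction. AE knockdown was higher than LYL1 knockdown for 8 members (10.7%), against 10.7% of all genes. It was lower for 4 (5.33%), against 9.7%. The share of members called higher was thus that of genes in general, and the share called lower was below it. At an unadjusted p below 0.05 there were 24 members, against 36.3%. AE libraries lay above all LYL1 libraries for 19 members (25.3%), against 18.2%, and below them for 10 (13.3%), against 17.2%. Of the called members, 4 of the 8 and 1 of the 4 were also called in AE knockdown against control. The 4 called higher against LYL1 knockdown but not against control are large subunit proteins, MRPL41, MRPL54, MRPL23 and MRPL27. MRPL54 had 31.4, 33.6 and 38.6 CPM with AE knockdown, 22.1, 27.5 and 22.4 CPM with LYL1 knockdown and 26.7, 27.4 and 29.1 CPM in control. All AE libraries were above the controls, and 2 of the 3 LYL1 libraries were below them. MRPL41 had 14.0, 18.0 and 15.2 CPM with AE knockdown, 12.01, 9.60 and 9.73 CPM with LYL1 knockdown and 11.4, 11.3 and 11.2 CPM in control. Its AE libraries lay above all others.

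The 3 members called lower against LYL1 knockdown but not against control were MRPL4, MRPL40 and MRPL32. MRPL4 had 64.9, 58.3 and 42.2 CPM with AE knockdown, 114, 77.8 and 77.5 CPM with LYL1 knockdown and 80.2, 78.7 and 67.2 CPM in control. MRPL40 had 25.7, 23.3 and 26.8 CPM with AE knockdown, beside the LYL1 and control values above. MRPL32, which the m-AAA protease of mitochondria processes before assembly, had 54.7, 44.6 and 49.7 CPM with AE knockdown, 62.2, 73.1 and 65.6 CPM with LYL1 knockdown and 58.3, 58.7 and 65.9 CPM in control. For all 3 genes the AE libraries were the lowest of the 9. Both knockdown comparisons against control use the same control libraries. Leaving out LYL1 library 542 left 0 higher and 3 lower calls, leaving out 538 left 3 and 2, and leaving out 540 left 5 and 3. Without AE library 3 there were 6 higher and 2 lower calls, and without any 1 control 3 higher and 2 or 3 lower. A fit of only the 6 libraries compared gave 0 and 1 (MRPS34), and the length and GC correction gave 3 and 6, with MRPL2 and MRPL58 added on the lower side. Calls over all genes fell too, from 3003 to 1467 without LYL1 library 542, 1830 without 538 and 2122 without 540. They were 2502 without AE library 3 and 2119 to 2291 without 1 control. The fit of only the 6 libraries gave 941 and the length and GC correction 2955.

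Across libraries the members moved modestly as a whole. They took 0.414, 0.460 and 0.362% of counts with AE knockdown, 0.432, 0.409 and 0.385% with LYL1 knockdown and 0.390, 0.393 and 0.397% in control. The AE values lie on both sides of the controls, with library 3 the lowest. The median log2 ratio of members to the control mean was 0.15, 0.24 and 0.13 in the AE libraries and 0.087, 0.053 and 0.022 in the LYL1 libraries. AE library 2 was the highest of all 9 for 32 of the 75 members, against 11.2% of all genes. Without AE library 2 the median log2 fold change of the members against control was 0.12, and against LYL1 knockdown 0.053 in place of 0.12.

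**Figure D3:**
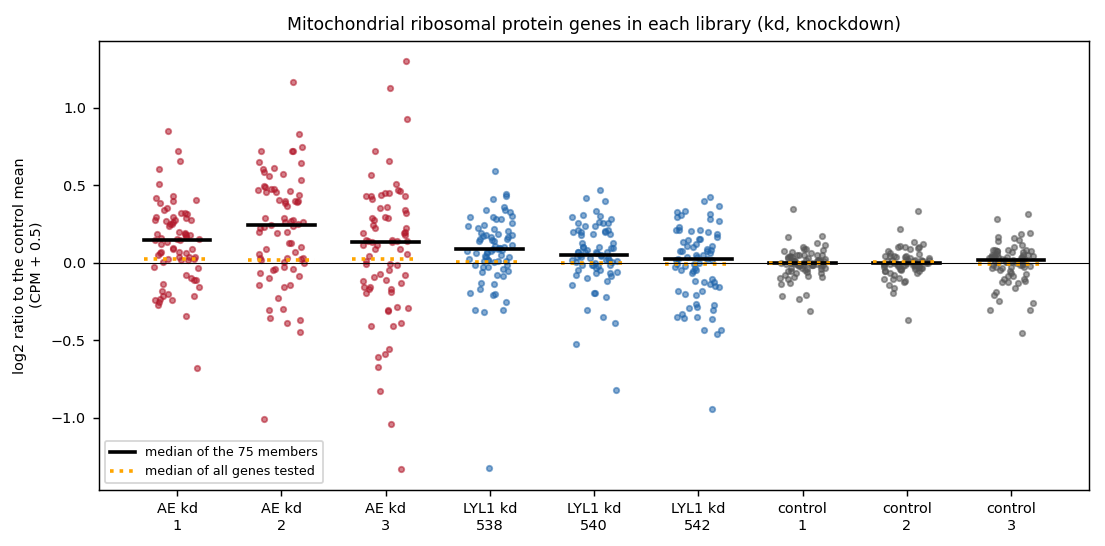
Log2 ratio of each tested member to its control mean (y axis, CPM + 0.5) in each of the 9 libraries, with a black line for the median of the 75 members and a dotted line for the median of all genes tested. The AE medians of 0.15, 0.24 and 0.13 lie above the LYL1 medians of 0.087, 0.053 and 0.022, and single members spread most in AE library 3.

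The spread between libraries of a group was below that of genes in general. The members' median coefficient of variation was 13.4% with AE knockdown, 10.1% with LYL1 knockdown and 4.88% in control, beside 22.6, 16.3 and 8.56% over all genes. The genes were not matched by level, and the part of level in this difference was not tested. As a description across the 75 members, which share libraries, the log2 fold change with AE knockdown had a Spearman rho of -0.34 with mean CPM, 0.10 with GC content and -0.04 with exon length, and that with LYL1 knockdown 0.33 with exon length. Pseudogene symbols held between 0.112 and 0.191% as many counts as the members.

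Other components of the mitochondrial translation system were also mostly not called with AE knockdown, as were most genes. Over all genes tested 11.4% were called higher and 10.4% lower, 21.8% in either direction, and the lists below are read beside these shares. Of 5 mitoribosomal proteins with other symbols, 1 was called higher (20%). CHCHD1 had 32.9, 44.2 and 40.1 CPM with AE knockdown, against 26.0, 27.7 and 29.2 CPM in control, at 0.50 ± 0.15 (edgeR adjusted p = 0.0346). DAP3, AURKAIP1 and PTCD3 had log2 fold changes of 0.30, 0.23 and 0.22, and GADD45GIP1 -0.26. Against LYL1 knockdown DAP3 was called higher at 0.50 and GADD45GIP1 lower at -0.48.

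Of 28 mitoribosome assembly factors 2 were called higher (7.14%) and 2 lower (7.14%). The GTPase MTG1 rose by 0.94 and the helicase DDX28 by 0.48 on the log2 scale, while the protease LONP1 fell by 0.91 and the helicase DHX30 by 0.54. LONP1 had 139, 149 and 66.7 CPM with AE knockdown, against 216, 226 and 225 CPM in control, with AE library 3 the lowest. Of 16 translation factors 3 were called higher (18.8%) and 0 lower. The 3 were the release factor MTRF1 at 0.73, the inner membrane insertase OXA1L at 0.80 and the recycling factor MRRF at 0.49. The elongation factor TSFM was not called, with a log2 fold change of -1.15 ± 0.38 and an edgeR adjusted p of 0.0503. Its level was low, at 0.21, 0.35 and 0.34 CPM with AE knockdown and 0.81, 0.57 and 0.63 CPM in control. Without AE library 3 the call of OXA1L ended (0.48 on the log2 scale, edgeR adjusted p = 0.0901), as did those of MRRF and DHX30, and 4 assembly factors were called higher. Of 19 tested mitochondrial tRNA synthetase and amidotransferase genes 1 was called higher (5.26%), HARS2 at 0.56.

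The rRNAs of the particle were measured too. MT-RNR1, the small subunit rRNA, had 592, 443 and 1375 CPM with AE knockdown, 376, 512 and 557 CPM with LYL1 knockdown and 372, 312 and 309 CPM in control. AE library 3 was more than the other AE libraries together, and the log2 fold change was 1.28 ± 0.36 (edgeR adjusted p = 0.0297). Without AE library 3 it was 0.63 (edgeR adjusted p = 0.0361). The call of MT-RNR1 ended without any 1 control (edgeR adjusted p = 0.0772 to 0.103), in a fit of only the 6 libraries compared (0.0566), with no low-count filter (0.127) and at an adjusted p below 0.01. MT-RNR2, the large subunit rRNA, had 5452, 4575 and 11920 CPM with AE knockdown, against 4922, 4485 and 5201 CPM in control, and was not called at 0.59 ± 0.33. Both rRNAs were highest in AE library 3. None of the 13 mRNAs of mitochondrial DNA was called by edgeR, DESeq2 or limma-voom. In each of these 1 had an unadjusted p below 0.05, and MT-CO3 stood highest at 0.43 on the log2 scale. With the length and GC correction MT-ND3, a complex I subunit, was called lower at -0.49 (edgeR adjusted p = 0.0391), and 5 of the 13 had an unadjusted p below 0.05.

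Of 16 genes for mitochondrial DNA maintenance and expression, 2 were called higher with AE knockdown (12.5%), against 11.4% of all genes. HSD17B10, a subunit of mitochondrial RNase P, had 86.7, 96.6 and 85.5 CPM with AE knockdown, 62.1, 53.8 and 55.9 CPM with LYL1 knockdown and 12.2, 13.5 and 14.6 CPM in control. Its log2 fold change was 2.74 with AE knockdown and 2.09 with LYL1 knockdown, with edgeR adjusted p of 7.28e-06 and 0.000107. POLG, the mitochondrial DNA polymerase, rose by 0.50 on the log2 scale. Among 8 tested regulators ESRRA rose by 0.88 and 0 were called lower. The other 7 had log2 fold changes below 0, among them the GABP subunits GABPA and GABPB1 at -0.36 and -0.31. The median of the 8 was -0.26. For 5 of them all AE libraries lay below all controls, against 22.2% of all genes.

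The cytosolic ribosomal proteins, read by symbol, differed in their counts. With AE knockdown 54 of 76 were called higher and 0 lower by edgeR (DESeq2 59 and 0, limma-voom 52 and 0), 66 had an unadjusted p below 0.05, and their median log2 fold change was 0.84, beside 0.18 for the mitochondrial ribosomal proteins and 0.05 over all genes. They took 7.69, 7.74 and 11.6% of counts with AE knockdown, against 5.24, 5.31 and 5.19% in control. Without AE library 3 there were 40 called higher, and without a control library 21 to 26. With LYL1 knockdown their median was 0.01. No test compared the lists. Of the genes of these other lists named here as called with AE knockdown, HSD17B10 kept its call without each single control library, MTG1 and ESRRA kept it without control 1, and the others lost it without any 1 of the controls. CHCHD1 also lost its call without AE library 2 or 3 or LYL1 library 540, MRRF without AE library 2 or LYL1 library 540, OXA1L and DHX30 without LYL1 library 540, DDX28 without AE library 1, and HARS2 without AE library 1 or 3 or LYL1 library 538.

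**Figure D4:**
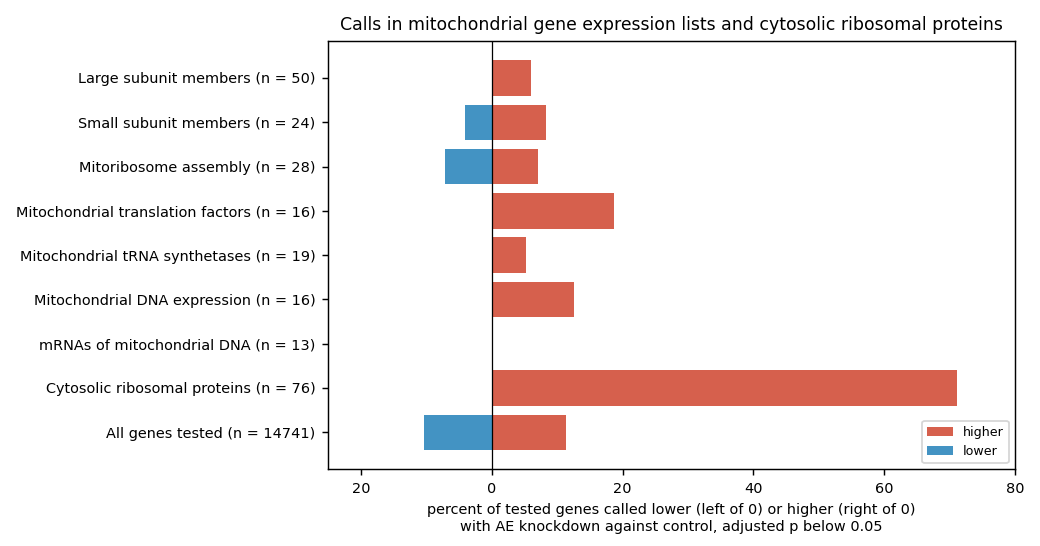
Percent of the tested genes of each list called lower (left of 0) or higher (right of 0) with AE knockdown against control, with the number of genes tested in brackets. The bar of the cytosolic ribosomal proteins, 54 of 76, reaches far to the right, while the bars of both mitoribosomal subunits stay short of the 11.4% of all genes.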

How the data were processed

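The authors deposited raw counts per gene symbol and library, whole numbers with no normalisation. The submitters' processing notes name the build hg19, featureCounts 2.0.1, HISAT2 2.2.0, DESeq2 1.26.0, fastp 0.20.1 and SAMtools 1.7, without saying what each was used for. The gene annotation, strand setting and multi-mapping rule are not given in the sources used here. A trailing suffix on 5 gene names was removed in 6 files, those of the AE knockdown and control libraries. The LYL1 knockdown files had no such suffix, and whether they were also handled differently in other steps was not tested.

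Members and gene lists were chosen with earlier results of these data known. Counts were filtered with filterByExpr, TMM scaled and fitted in edgeR 4.0.16 (R 4.3.3, limma 3.58.1, quasi-likelihood, robust, all 9 libraries in a group-means model), with Benjamini-Hochberg adjustment over 14741 genes. SE is the log2 fold change divided by the square root of F. The fit was tested on simulated data. Alternatives were other scalings and filters, DESeq2 1.42.0, limma-voom, the 6 libraries compared, a length and GC offset, a replicate block, a threshold of 0.01, leaving out each library and, added after seeing the data, the legacy quasi-likelihood fit. Exon lengths and overlaps come from GENCODE 29, which may not match the counted annotation.

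Named are called members (up to 10 per direction and comparison), those with the smallest p where fewer than 5 were called, the 5 highest and lowest levels, the MRPS18 paralogs, MRPS36, both rRNAs, the proteins with other symbols and up to 4 genes per further list.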

Additional observations from a re-analysis of the deposited data

Results flagged for a closer look

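The difference between the knockdowns was tested directly, as AE knockdown against LYL1 knockdown in edgeR's quasi-likelihood test with Benjamini-Hochberg adjustment. It passed for 12 of 75 members, beside 20.4% of all genes. Higher calls made up 10.7% of members and 10.7% of all genes, and lower calls 5.33% and 9.7%. On the log2 scale AE knockdown was higher for MRPL12 by 0.78, MRPS33 by 0.67, MRPL16 by 0.63, MRPL41 by 0.59, MRPL54 by 0.52, MRPL52 by 0.51, MRPL23 by 0.46 and MRPL27 by 0.44. AE knockdown was lower for MRPS34 at -0.90, MRPL4 at -0.70, MRPL40 at -0.56 and MRPL32 at -0.43. The adjusted p-values ran from 0.0106 (MRPS34) to 0.0486 (MRPL27), and all 3 AE libraries lay on one side of all 3 LYL1 libraries for each of the 12. The 12 were picked by a test on these same values, so this is no further evidence. In a fit of only the 6 libraries compared MRPS34 was the 1 member called, and calls over all genes fell from 3003 to 941. The main fit takes its spread from all 9 libraries, controls included. The members' median coefficient of variation was 4.88% in control, beside 13.4% with AE knockdown and 10.1% with LYL1 knockdown. The part of this in the calls was not tested.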

How the results depend on the processing

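With AE knockdown against control, the 6 higher calls became 12 with upper-quartile scaling, 2 with no low-count filter, 2 with the replicate block and 1 at an adjusted p below 0.01, and ranged from 1 to 7 when single libraries were left out. The 1 lower call became 2 in DESeq2 and 2 with the length and GC offset. In their deviations from the group means, same-numbered AE and control libraries correlated at 0.0416, -0.0135 and 0.00685. Differently numbered ones ran from -0.047 to 0.0317. These values show no pairing, but with 3 libraries per group they cannot settle whether the numbers pair the libraries. MT-RNR1 was not called with the replicate block either (edgeR adjusted p = 0.0797). In that fit 0 assembly factors, translation factors, tRNA synthetase genes and mitoribosomal proteins with other symbols were called. For mitochondrial DNA expression and for the regulators 1 gene each was called higher, and 27 cytosolic ribosomal proteins were, in place of 54. With AE knockdown against LYL1 knockdown, the 8 higher calls became 5 with library size only, 3 with no low-count filter, 0 with only the 6 libraries compared, 3 with the length and GC offset and 0 at an adjusted p below 0.01, and ranged from 0 to 7 when single libraries were left out. The 4 lower calls became 1 with only the 6 libraries, 0 at an adjusted p below 0.01 and 6 with the length and GC offset, and ranged from 2 to 4 when single libraries were left out. Leaving out 1 control also cut the genes called over the whole table with AE knockdown, to between 954 and 1096, against 3214 with all 9 libraries. That count was 3290 with upper-quartile scaling, 2660 with no low-count filter, 1629 with the replicate block and 813 at an adjusted p below 0.01. Against LYL1 knockdown, 3003 became 2823 with library size only, 2526 with no low-count filter and 784 at an adjusted p below 0.01. The cause was not tested for any of these. With LYL1 knockdown 0 members were called under every alternative run. No named member reversed: 556 member values kept their side of the threshold, 133 lost the call and 2 gained it (MRPS5 in DESeq2 at an adjusted p of 0.039, MRPL40 with the length and GC offset at 0.0306). The 556 include values of members not called in the main fit, which had no call to lose. All 133 losses fall on members called there, so the share of calls lost is larger than these counts show. The median of the members with AE knockdown against LYL1 knockdown, 0.12, became 0.025 with the length and GC offset. MRPL53, MRPS18B and MRPS24 did not pass the low-count filter, and why their counts are so low was not tested.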
